A study of Coilia nasus with 12 samples.

Results

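The enzymes of glycolysis and gluconeogenesis were examined in the stomach of Coilia nasus, an anadromous anchovy. They were taken from an expression table of transcripts assembled without a genome (unigenes) by gene name, from hexokinase and glucokinase through the enzymes of glycolysis to lactate dehydrogenase, together with PEP carboxykinase, fructose 1,6-bisphosphatase, glucose 6-phosphatase and the bifunctional PFKFB enzymes. The rule found 71 of 63567 unigenes, carrying 26 gene names. Each of the 12 RNA-seq libraries came from the stomach of 1 fish. The condition label is food intake for 6 fish and, for the other 6, no food intake, which the protocol text also calls feeding and control. Stomach is the labelled tissue and gastric mucosa the labelled source, with no treatment, age, strain or feeding time stated. The labels name separate fish but not tanks or capture days, so p-values measure the spread between these fish. The comparison asks how the stomach's expression differs between fish that had eaten and fish that had not.

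Glycolysis splits glucose into pyruvate in the cytosol and yields ATP and NADH, and lactate dehydrogenase turns pyruvate into lactate and restores NAD. Gluconeogenesis runs most of the same reactions backwards and bypasses the irreversible steps with PEP carboxykinase, fructose 1,6-bisphosphatase and glucose 6-phosphatase. Most steps have several isozymes, which in vertebrates differ between muscle, liver and other tissues. In the stomach wall the pathway serves acid-secreting and mucous cells of the lining and the smooth muscle beneath it.

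Values are TPM, which is scaled to length, so levels of different unigenes can be compared within a library. Of the 71 unigenes, 50 had a fish protein as best match, 20 a protein of another organism and 1 none. No unigene carried a glucose 6-phosphatase, glucokinase, HK3, HKDC1, ALDOC, PKLR, ENO2, ENO4, GAPDHS, PFKFB1 or PFKFB3 name. Several unigenes shared a name and may be pieces of 1 transcript, alleles or gene copies, which the assembly does not separate. The test took in the 41 with 1 TPM or more in 6 or more libraries, of which 33 had a fish match. The other 30 are given as values only.

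Some libraries stood apart before any enzyme was considered. In food intake 6, 7 rRNA-like unigenes took 64.2% of all TPM, against 4.34% to 26.9% in the other 11 libraries, and food intake 6 was the lowest library for 22 of the 33 tested fish-matched enzymes. Food intake 1 was the highest library for 15 of the 33. No such counts were made over all tested unigenes, so the 22 and the 15 cannot be read as particular to the enzymes. No food intake 3 had the most smooth muscle marker TPM, 26630 against 1506 to 6799 elsewhere, and the least TPM from acid and pepsinogen cell markers, 58238 against 108945 to 372362. No food intake 6 had 1016 TPM from striated muscle markers, against 16.8 to 102 elsewhere. Unigenes matching chicken mitochondria were above 0 in 7 libraries and at 0 in the other 5, which were food intake 2, 3 and 4 together with no food intake 3 and 5. Among 9 lists of cell type markers limma called 0 unigenes after adjustment. At an unadjusted p under 0.05, 2 of 31 acid and pepsinogen cell unigenes were higher with food intake, 1 of 13 striated muscle unigenes was higher and 1 lower, and 1 of 12 mucous surface cell and 1 of 6 leukocyte unigenes were lower. Over all tested unigenes, 2.48% were higher and 3.79% lower at that threshold, and 0% were called after adjustment. The striated muscle unigene that was higher, named ACTA1 (TRINITY_DN30639_c1_g4) but without a fish match and so outside the marker sums, had 20.3 to 350.4 TPM with food intake and 18.6 to 52.75 TPM without. The smooth muscle, liver, erythrocyte, exocrine pancreas and endocrine and nerve lists had 0 in either direction. The median fitted log2 change in TPM + 1, positive where fish with food were higher, was 0.51 for acid and pepsinogen cell unigenes. Of these 31, 26 were above 0, against 46.0% of all tested unigenes. Medians were 0.05 for striated muscle, 0.04 for mucous surface, -0.17 for leukocyte, -0.04 for smooth muscle and -0.29 for liver unigenes. They were 0.13 for erythrocyte, 0.21 for pancreas and 0.22 for endocrine and nerve unigenes. The part of cell makeup in the enzyme values was not tested. The labels name no batch. In whole tissue, fewer cells of a type and less RNA per cell cannot be told apart.

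No enzyme passed the test of a difference between the groups over all unigenes. limma called 0 of the 41 at an adjusted p under 0.05, where percent called over all 40142 tested unigenes was 0%, and the smallest adjusted p among the enzymes was 0.768. At an unadjusted p under 0.05, 0 enzymes were higher with food intake against 2.48% of all tested unigenes, and 2 (4.88%) were lower against 3.79%. The fitted change was above 0 in 24 of the 41 (58.5%), against 46.0% of all tested unigenes. The median fitted log2 change in TPM + 1, positive where fish with food were higher, was 0.13 for the enzymes and -0.04 for all tested unigenes. Among the 33 enzymes with a fish match alone, the fitted change was above 0 in 18 and the median was 0.06. In 0 of the 41 did all 6 fish of one group lie above all 6 of the other, which happened in 0.0249% of all tested unigenes in the higher direction and 0.142% in the lower.

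Food intake 6 weighed on these counts. Without it, limma gave 11 of the 41 enzymes higher (26.8%, against 8.36% of all tested unigenes) and 2 lower (4.88%, against 2.88%) at an unadjusted p under 0.05, and called 0 after adjustment (smallest adjusted p = 0.213). Of the 41, 27 (65.9%) then had a fitted change above 0, against 55.5% of all tested unigenes. The median log2 change was 0.23 for the enzymes and 0.06 for all tested unigenes. When TPM was rescaled in all 12 libraries to leave the rRNA-like unigenes out, 5 enzymes were higher (12.2%, against 5.69%) and 2 lower (4.88%, against 2.52%), again with 0 called by limma (smallest adjusted p = 0.514). The fitted change was above 0 in 28 of the 41 (68.3%), against 55.8%. That rescaling turned the split over all tested unigenes from 997 higher and 1521 lower to 2285 higher and 1013 lower, and it moved their median log2 change from -0.04 to 0.06. With the replicate number as a block, 2 enzymes were higher (against 2.48%) and 2 lower (against 3.58%) and limma called 0. Food intake 6 was the lowest library for 3 of the 33 fish-matched enzymes after rescaling, and food intake 1 stayed the highest for 15. Without food intake 1, 0 of the 41 enzymes were higher (against 671 of 40142 tested unigenes) and 1 was lower (against 1127). The median log2 change was then 0.016 for the enzymes and -0.07 for all tested unigenes.

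**Figure D1:**
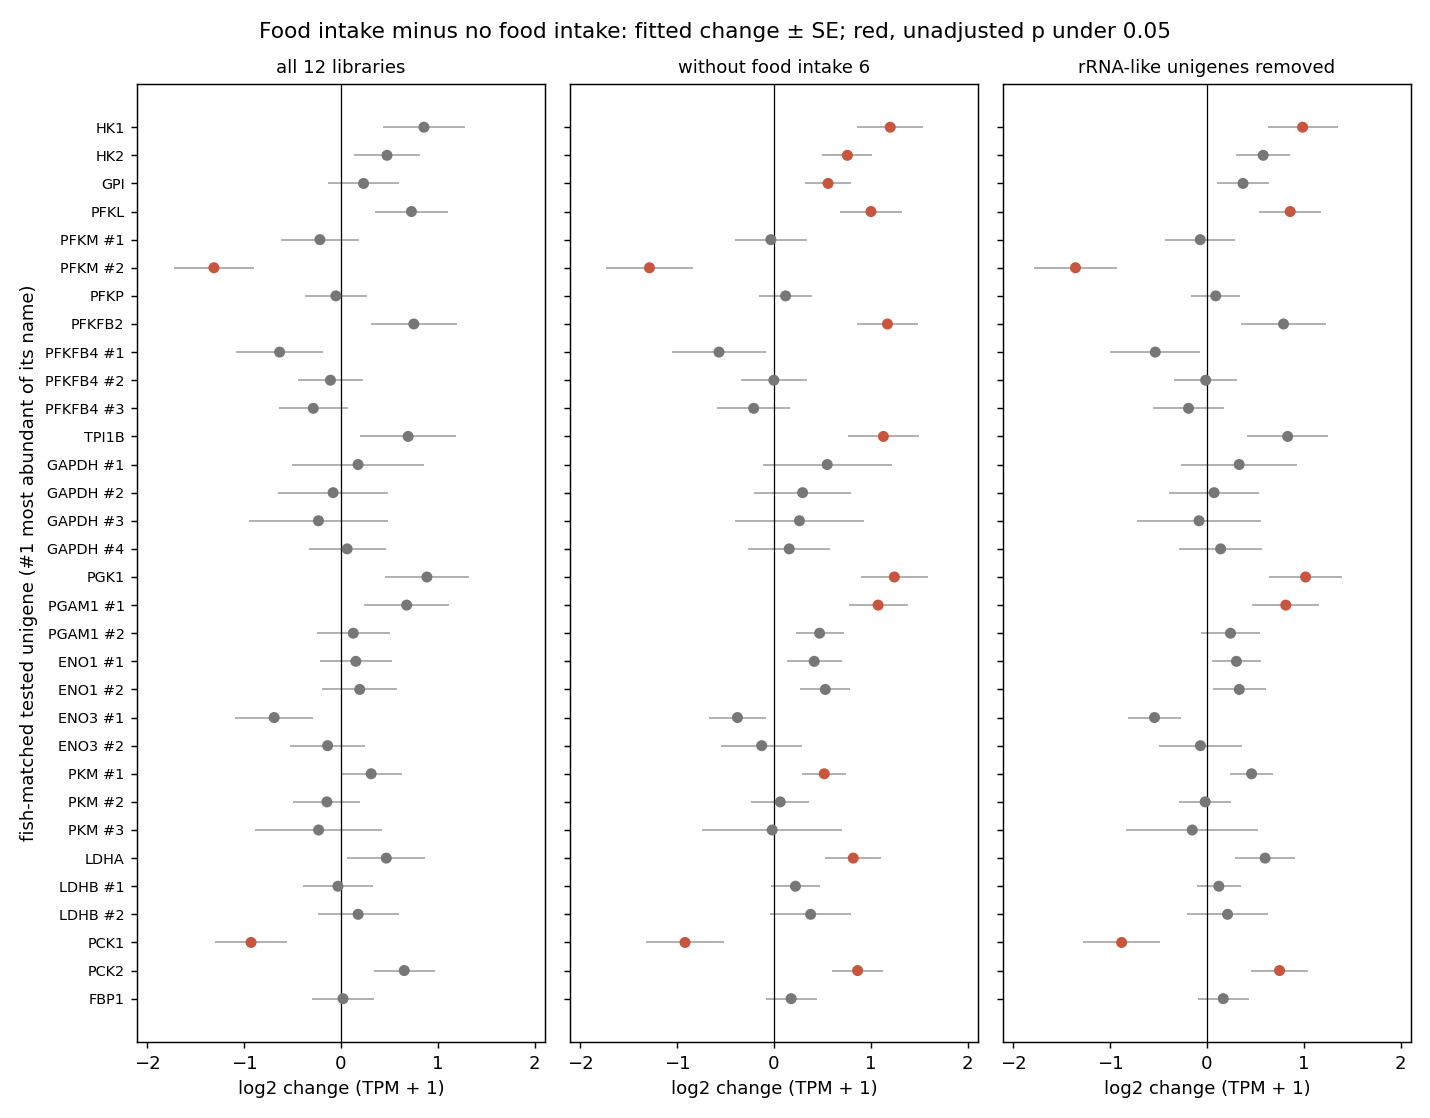
Fitted log2 change in TPM + 1 (food intake minus no food intake) for 32 of the 33 tested fish-matched enzyme unigenes, with 1 SE on each side, from all 12 libraries, without food intake 6, and from TPM rescaled to leave out rRNA-like unigenes. Points in red had an unadjusted p under 0.05 in limma, 2 in the first panel, 13 in the second and 7 in the third, and none passed adjustment.

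Hexokinase traps glucose in the cell as glucose 6-phosphate. The main HK1 unigene (TRINITY_DN33947_c1_g1) ranged from 2.06 to 24.9 TPM with food intake, with a median of 8.44, and from 3.50 to 7.32 TPM without, with a median of 4.15. Food intake 1 and 3 were far above the rest, at 24.9 and 19.5 TPM, and food intake 6 was the lowest of the 12. Its fitted change on the log2 scale was 0.86 (SE 0.43, adjusted p = 0.803 in limma), and it was 1.20 without food intake 6, 0.99 after rescaling and 0.31 summed over all HK1-named unigenes. HK2 (TRINITY_DN30483_c1_g2), the isozyme that insulin and exercise induce in mammalian muscle, ran from 1.19 to 8.95 TPM with food intake and from 2.55 to 4.80 TPM without (log2 change 0.48, SE 0.34, adjusted p = 0.852 in limma). Without food intake 6 the HK2 change was 0.76, and without food intake 1 it was 0.32. The groups overlapped for both. HK1 took 50.3% to 74.8% of hexokinase TPM with food intake and 57.8% to 81.3% without, so the balance of isozymes did not separate the groups. The 4 other hexokinase unigenes stayed at 8.73 TPM or less. In them name and protein match could differ, as an HK2-named unigene (TRINITY_DN13878_c0_g1) matched hexokinase-3 and an HK1-named one (TRINITY_DN33947_c1_g5) matched HKDC1.

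Glucose 6-phosphate isomerase turns glucose 6-phosphate into fructose 6-phosphate. Its only unigene, GPI (TRINITY_DN34077_c2_g4), had 5.73 to 33.5 TPM with food intake (median 25.2) and 14.3 to 18.3 TPM without (median 16.9). The no food intake fish were close together, whereas 4 food intake fish lay above all of them, and food intake 4 and 6 did not. How often most food intake fish lay above every fish without food was not counted over all tested unigenes. Such placings, here and below, therefore cannot be read as particular to the enzymes. Its log2 change was 0.23 (SE 0.37, adjusted p = 0.944 in limma) over all 12 libraries, 0.56 without food intake 6 and 0.087 without food intake 1.

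Phosphofructokinase commits the sugar to glycolysis, and its liver, muscle and platelet forms combine into tetramers in mammals. PFKL (TRINITY_DN32996_c0_g1), the liver type, had 1.54 to 9.82 TPM with food intake (median 6.53) and 1.41 to 7.24 TPM without (median 2.49). Its log2 change was 0.73 (SE 0.38, adjusted p = 0.803 in limma), with 1.001 without food intake 6, 0.86 after rescaling and 0.46 summed over all PFKL-named unigenes. In the 3 food intake fish against the 2 others of the set with no chicken mitochondrial unigenes it was 1.03, and in the other set, 3 against 4, it was 0.52. Food intake 1 to 5 lay above every fish without food other than no food intake 4. The most abundant phosphofructokinase, named PFKM (TRINITY_DN27968_c1_g1) but with a platelet-type protein as its best match, had 12.4 to 37.1 TPM with food intake and 13.5 to 82.3 TPM without. The highest value, 82.3 TPM, was that of no food intake 4. PFKP (TRINITY_DN28086_c1_g2), the platelet type, had a median of 14.9 TPM with food intake and 13.96 TPM without, with log2 changes of -0.05 over all 12 libraries and 0.09 after rescaling.

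The other PFKM unigene (TRINITY_DN28086_c1_g1), whose best match is the muscle type of herring, had the smallest p of the 41. It stood at 0.16, 0.45, 0.10, 0.50, 1.14 and 0.28 TPM in food intake 1 to 6. No food intake 1 to 6 had 1.73, 0.65, 3.11, 1.92, 1.45 and 12.3 TPM. Only food intake 5 lay above the lowest of the no food intake fish, and all of the food intake values lay below their median of 1.82 TPM. The filter asks for 1 TPM in 6 libraries, which only food intake 5 and no food intake 1, 3, 4, 5 and 6 reached. The unigene thus entered the test mostly through the group where it was higher, so its small p is not support for a difference. The fitted log2 difference was -1.31 (SE 0.42, unadjusted p = 0.00579, adjusted p = 0.768 in limma), and without no food intake 6 it was -0.92 (unadjusted p = 0.0162, adjusted p = 0.881 in limma). In the library sets with and without chicken mitochondrial unigenes, given in that order from here, it was -1.31 and -1.25, and with a pseudocount of 0.1 it was -2.40. Summed striated muscle markers were highest in the fish with its highest value, no food intake 6. The part of muscle tissue in this difference was not tested.

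PFKFB enzymes make and break fructose 2,6-bisphosphate, the strongest activator of phosphofructokinase and an inhibitor of fructose 1,6-bisphosphatase. PFKFB2 (TRINITY_DN26598_c2_g1), the form abundant in mammalian heart, had 9.46, 5.46, 6.77, 2.32, 8.91 and 0.23 TPM in food intake 1 to 6. The values were, in no food intake 1 to 6, 2.54, 1.14, 2.28, 2.97, 1.40 and 2.94 TPM. Food intake 1, 2, 3 and 5 lay above every fish without food, food intake 4 lay among them and food intake 6 lay below all. The log2 change was 0.75 (SE 0.44, adjusted p = 0.810 in limma), and without food intake 6 it was 1.17 (SE 0.32), with the smallest adjusted p of any enzyme in that fit, 0.213 in limma. After rescaling it was 0.79, with food intake 6 still at 0.64 TPM, and without food intake 1 it was 0.55. PFKFB4 (TRINITY_DN30700_c0_g3) had medians of 2.02 TPM with food intake and 4.15 TPM without, and a log2 change of -0.63 (SE 0.45, adjusted p = 0.848 in limma), or -0.36 without no food intake 3. Food intake 4, at 9.06 TPM, was the only fish of its group above 2.25 TPM. PFKFB2 took 53.1%, 58.2%, 70.4%, 18.2%, 62.8% and 6.90% of PFKFB TPM in food intake 1 to 6, against 11.5% to 33.7% in the fish without food. The groups therefore overlapped through food intake 4 and 6. A share within a library does not depend on how the library is scaled.

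Aldolase splits fructose 1,6-bisphosphate into triose phosphates. Both ALDOA-named unigenes matched mammals and stayed at 2.62 TPM or less. The fish's own aldolase A, the muscle and general form, carried no gene name and so fell outside the rule. It was found as 3 unigenes by protein match, after the values had been seen. They summed to 72.6 to 179 TPM with food intake and 152 to 409 TPM without. A pair of them had unadjusted p under 0.05. TRINITY_DN30345_c2_g5 had 18.5 to 35.6 TPM with food intake and 32.4 to 148 TPM without (log2 change -1.37, SE 0.39, adjusted p = 0.768 in limma), with only food intake 4 above the lowest fish without food. TRINITY_DN28785_c4_g1 had 28.1 to 56.8 against 36.9 to 205 TPM (log2 change -1.11, SE 0.42, adjusted p = 0.774 in limma). For both, no food intake 3 and 6 were the highest libraries, which are those with the most smooth and striated muscle marker TPM. With single libraries left out, the change nearest 0 was -1.14 for TRINITY_DN30345_c2_g5, without no food intake 3. For TRINITY_DN28785_c4_g1 it was -0.82, without no food intake 6. Whether muscle tissue had a part in these differences was not tested. The remaining one, TRINITY_DN30345_c2_g1, had medians of 88.7 and 69.5 TPM and a log2 change of 0.25 (SE 0.39, adjusted p = 0.943 in limma).

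**Figure D2:**
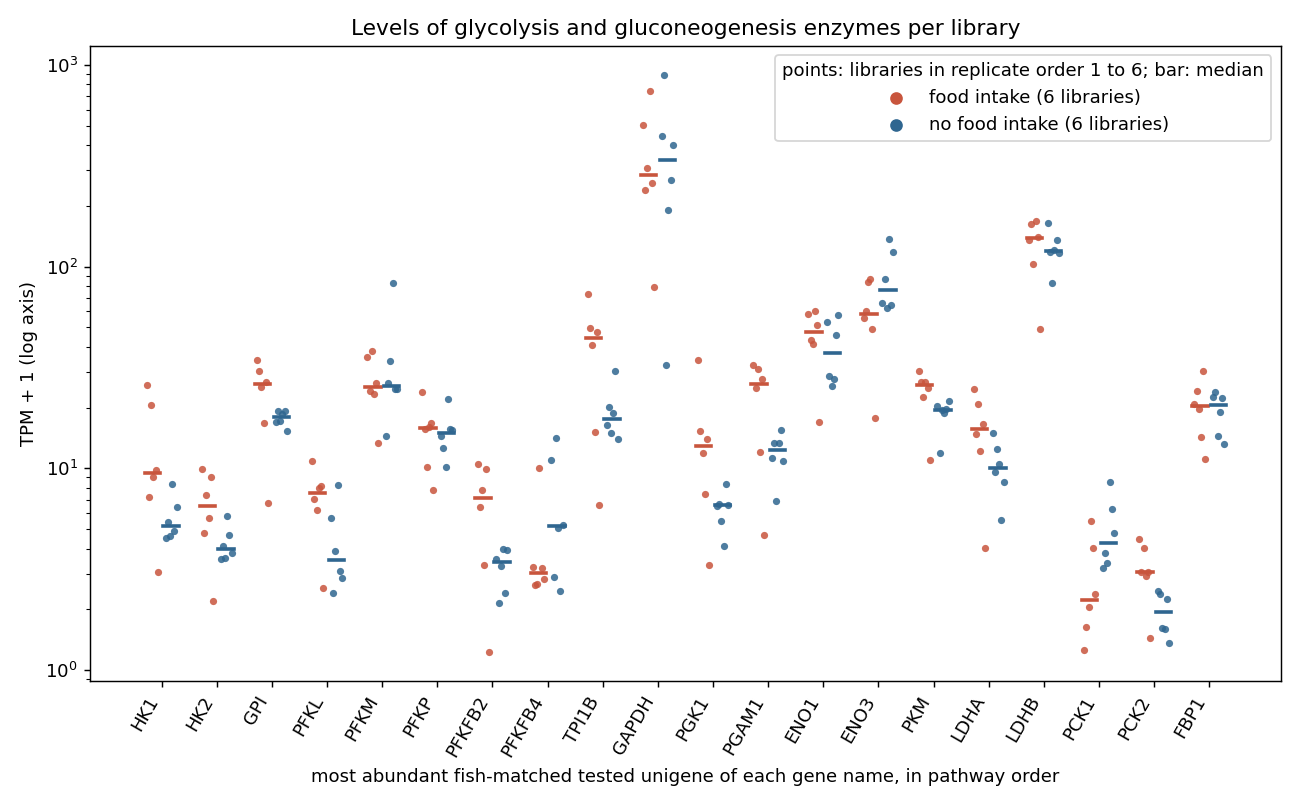
TPM + 1 on a log axis in each of the 12 libraries for the most abundant tested fish-matched unigene of each gene name reported, in pathway order, with food intake in red, no food intake in blue and a bar at each median. GAPDH and LDHB were the most abundant of those plotted, and food intake 6 is the lowest red point for most enzymes.

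Triose phosphate isomerase interconverts the triose phosphates so that the whole sugar can be used. TPI1B (TRINITY_DN26004_c0_g2) had 71.8, 48.6, 40.0, 14.2, 46.3 and 5.57 TPM in food intake 1 to 6. In no food intake 1 to 6 it had 15.5, 19.2, 13.9, 17.7, 29.3 and 12.95 TPM. Food intake 1, 2, 3 and 5 lay above every fish without food and food intake 4 and 6 did not. The fitted log2 difference was 0.69 (SE 0.49, adjusted p = 0.850 in limma), and it was 1.13 without food intake 6, 0.83 after rescaling and 0.44 without food intake 1. TPI1A (TRINITY_DN26004_c0_g1) stayed at 2.35 TPM or less, and TPI1B took 85.5% to 98.8% of isomerase TPM.

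Glyceraldehyde 3-phosphate dehydrogenase makes the NADH of glycolysis and is often used as a reference gene. The 6 fish-matched GAPDH unigenes summed to 174 to 1892 TPM with food intake and 211 to 2055 TPM without, an 11.8-fold range across libraries, with medians of 859 and 791 TPM. The most abundant (TRINITY_DN32156_c0_g4) had 77.8 to 738 TPM (median 282) with food intake and 31.7 to 892 TPM (median 335.02) without. Its log2 change was 0.18 (SE 0.68, adjusted p = 0.981 in limma). The direction differed between the library sets, with -0.95 (SE 0.69) where chicken mitochondrial unigenes were present and 2.02 (SE 1.03) where they were absent. The median over all tested unigenes changed sign in the same way, at -0.19 and 0.18. The 2.02 rests on 3 fish against 2, of which no food intake 3 had the lowest value of all. The next 2 by level (TRINITY_DN34007_c0_g3 and TRINITY_DN35252_c1_g1) had log2 changes of -0.08 and -0.23 and likewise split by set, at -1.20 and 1.45 for the former and -1.47 and 1.55 for the latter. A unigene named gapdh-2 (TRINITY_DN31271_c0_g1), outside the rule, had 38.4 to 125 TPM with food intake and 31.6 to 156 TPM without.

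Phosphoglycerate kinase makes the first ATP of glycolysis. PGK1 (TRINITY_DN26975_c1_g8) had 33.4, 14.4, 10.9, 6.42, 12.9 and 2.31 TPM in food intake 1 to 6. No food intake 1 to 6 had 5.52, 5.67, 4.50, 3.10, 7.34 and 5.56 TPM. The same 4 food intake fish as for TPI1B, 1, 2, 3 and 5, lay above all the others. Over all tested unigenes this placing was not counted. The log2 change was 0.89 (SE 0.43, adjusted p = 0.803 in limma), and it was 1.24 without food intake 6, 1.02 after rescaling and 0.57 without food intake 1. It was also above 0 in both library sets, at 0.995 and 0.71. The group medians were 11.9 and 5.54 TPM, beside 859 and 791 TPM for the GAPDH sums of the step before it.

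Phosphoglycerate mutase moves the phosphate from carbon 3 to carbon 2 of phosphoglycerate, and PGAM1 is its general form and PGAM2 its muscle form. The main PGAM1 unigene (TRINITY_DN31301_c0_g1) had 3.65 to 31.6 TPM with food intake (median 25.2) and 5.90 to 14.5 TPM without (median 11.3). Food intake 1, 2, 3 and 5 again lay above every fish without food. Its fitted change on the log2 scale was 0.68 (SE 0.44, adjusted p = 0.831 in limma), and it was 1.07 without food intake 6, 0.81 after rescaling and 0.45 summed over all PGAM1-named unigenes. The library sets gave 0.41 and 1.02. The other fish-matched PGAM1 unigene (TRINITY_DN31301_c0_g6) had medians of 13.4 and 8.50 TPM and a smaller log2 change, 0.13 (SE 0.38, adjusted p = 0.975 in limma). PGAM2 (TRINITY_DN29137_c1_g6) was not tested and stayed at 1.5 TPM or less in 10 libraries, with 3.96 TPM in food intake 5 and 8.43 TPM in no food intake 6.

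Enolase makes phosphoenolpyruvate, with alpha-enolase (ENO1) in most tissues and beta-enolase (ENO3) typical of muscle. ENO3 (TRINITY_DN33124_c0_g5) had 54.4, 59.3, 82.5, 85.6, 48.2 and 16.8 TPM in food intake 1 to 6. The values were, in no food intake 1 to 6, 64.8, 85.6, 61.6, 136, 63.3 and 117 TPM. Its log2 change was -0.69 (SE 0.40, adjusted p = 0.808 in limma), and -0.38 without food intake 6. The library sets gave -1.43 and 0.26. The main ENO1 unigene (TRINITY_DN30352_c0_g5) had medians of 46.4 and 36.4 TPM and a log2 change of 0.15 (SE 0.37, adjusted p = 0.968 in limma). Leaving out food intake 6 gave 0.42, and leaving out no food intake 3 gave 0.04. The library sets gave ENO1 -0.10 and 0.48, so within each set ENO1 and ENO3 had the same sign. That was also the sign of the median over all tested unigenes, -0.19 and 0.18. ENO3 took 39.9% to 52.5% of enolase TPM with food intake and 46.4% to 71.8% without, and all of the food intake shares lay below the no food intake median of 63.3%. Adding 2 unnamed enolase unigenes found by protein match lowered the shares to 20.7% to 36.6% and 29.3% to 52.4%, with the groups still overlapping. Another ENO3-named unigene (TRINITY_DN33174_c4_g10) matched gamma-enolase and stayed at 4.08 TPM or less.

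**Figure D3:**
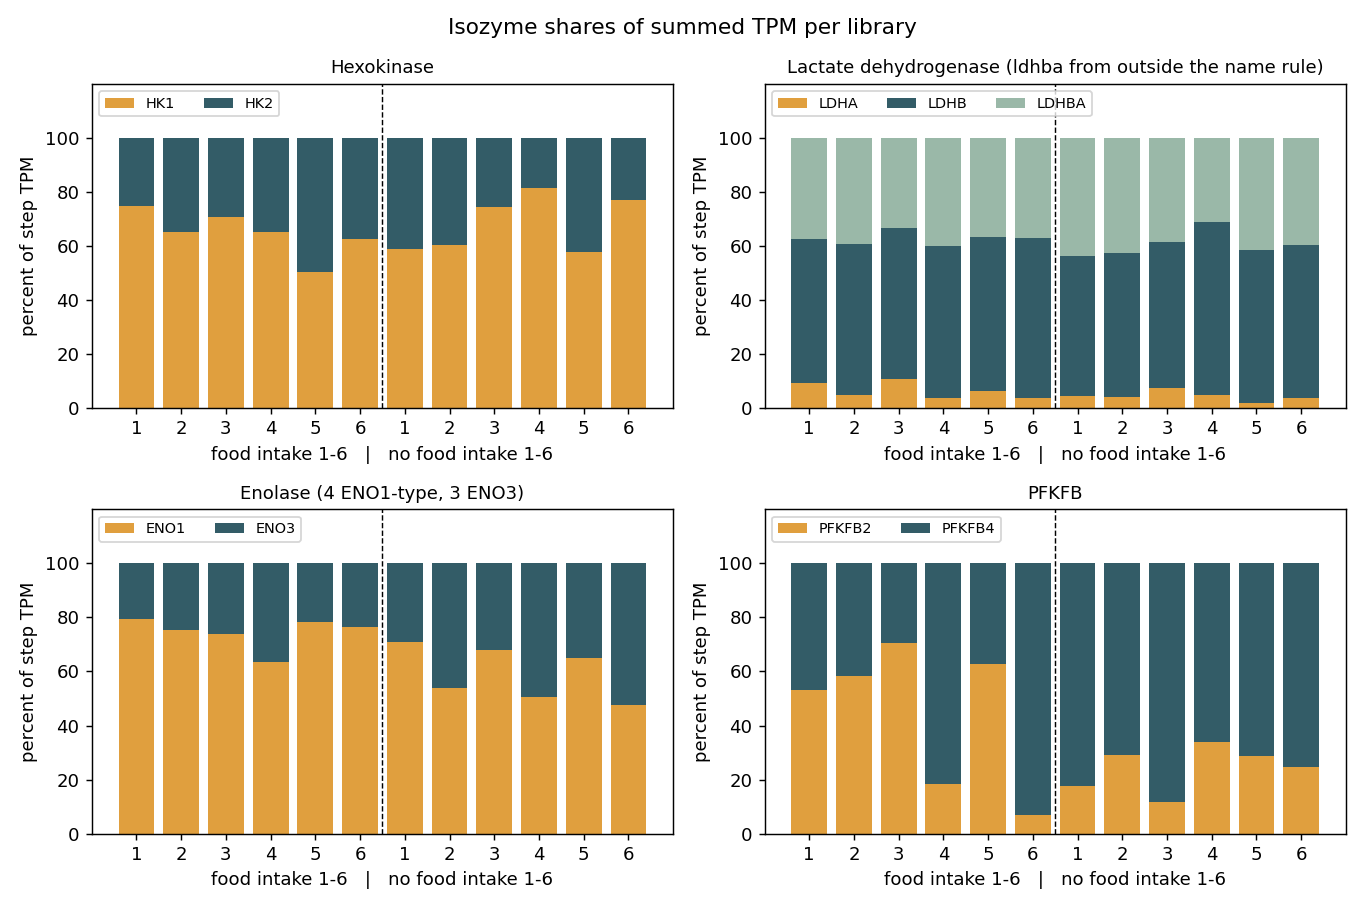
Percent of summed TPM taken by each isozyme in the 12 libraries for hexokinase, lactate dehydrogenase, enolase and PFKFB, over fish-matched unigenes and with the unnamed enolase and the ldhba unigenes added. The LDHA share was at most 10.7% in any library. The ENO3 share lay between 20.7% and 36.6% with food intake and 29.3% and 52.4% without, and the PFKFB2 share was 53.1% to 70.4% in 4 food intake libraries and at most 33.7% in the other 8.

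Pyruvate kinase makes the last ATP of glycolysis, and every unigene found was of the muscle and general form PKM. The main PKM unigene (TRINITY_DN31454_c0_g1) had 29.3, 25.8, 21.5, 25.9, 24.0 and 10.03 TPM in food intake 1 to 6. In no food intake 1 to 6 it had 19.3, 10.9, 18.4, 17.7, 18.7 and 20.5 TPM. All of the food intake fish except 6 lay above all fish without food. The fitted log2 difference was 0.31 (SE 0.31, adjusted p = 0.899 in limma), and it was 0.52 without food intake 6, 0.19 without no food intake 2 and 0.46 after rescaling. The next PKM unigene (TRINITY_DN27366_c1_g1) had medians of 8.04 and 8.09 TPM. Summed by gene name, PKM had a log2 change of -0.03, and in that sum no food intake 6 carried 32.6 and 19.5 TPM of 2 further PKM unigenes that stayed at 4.65 TPM or less elsewhere.

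Lactate dehydrogenase interconverts pyruvate and lactate, and the A chain is typical of fast muscle and the B chain of heart and other oxidative tissues. LDHB (TRINITY_DN31911_c0_g3) had 48.0 to 168 TPM with food intake (median 137) and 81.5 to 164 TPM without (median 118). Its log2 change was -0.03 (SE 0.36, adjusted p = 0.995 in limma) and turned to 0.12 after rescaling. LDHA (TRINITY_DN31911_c0_g1) was lower in level, with 3.02 to 23.7 TPM (median 14.7) with food intake and 4.54 to 14.04 TPM (median 9.01) without. Its log2 change was 0.47 (SE 0.40, adjusted p = 0.876 in limma), and it was 0.82 without food intake 6, 0.60 after rescaling and 0.29 without food intake 1. The library sets gave 0.15 and 0.91. LDHA took 5.89% to 16.1% of lactate dehydrogenase TPM with food intake and 3.24% to 12.2% without, so the stomach's lactate dehydrogenase transcripts were mostly of the B chain in every fish. A unigene named ldhba, outside the rule, had medians of 94.7 and 87.9 TPM.

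PEP carboxykinase turns oxaloacetate into phosphoenolpyruvate, as PCK1 in the cytosol and PCK2 in the mitochondrion. PCK1 (TRINITY_DN33744_c1_g5) was the other enzyme lower at an unadjusted p under 0.05. It stood at 0.26, 0.64, 1.05, 4.45, 3.03 and 1.37 TPM in food intake 1 to 6. No food intake 1 to 6 had 2.20, 2.78, 2.40, 7.53, 5.26 and 3.75 TPM. Only food intake 4 and 5 lay above the lowest fish without food. The log2 change was -0.93 (SE 0.37, unadjusted p = 0.0231, adjusted p = 0.774 in limma), and it was -0.88 after rescaling and -1.04 and -0.81 in the library sets. Summed over all PCK1-named unigenes it was -0.27, and with a pseudocount of 0.1 it was -1.44. PCK2 (TRINITY_DN24970_c0_g1) had 3.47, 2.05, 3.03, 1.92, 2.05 and 0.44 TPM in food intake 1 to 6. The values were, in no food intake 1 to 6, 1.47, 1.38, 0.62, 0.60, 1.25 and 0.36 TPM. Food intake 1 to 5 lay above every fish without food. Its fitted change on the log2 scale was 0.65 (SE 0.31, adjusted p = 0.800 in limma), and it was 0.86 without food intake 6, 0.75 after rescaling and 1.05 with a pseudocount of 0.1. Without food intake 1 it was 0.54, and the library sets gave 0.51 and 0.79.

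The cytosolic and mitochondrial forms therefore had fitted changes of opposite sign, at levels of a few TPM. A PCK1-named unigene (TRINITY_DN24970_c0_g2) had the mitochondrial enzyme as its best match and had medians of 1.64 TPM with food intake and 0.54 TPM without. Grouped by best match, a choice made after the values were seen, the mitochondrial form took 89.6%, 60.4%, 58.7%, 34.8%, 48.6% and 27.6% of PEP carboxykinase TPM in food intake 1 to 6. In no food intake 1 to 6 it took 41.0%, 40.1%, 24.8%, 7.85%, 26.9% and 11.7%. Every food intake share lay above the no food intake median of 25.8%, and food intake 4 and 6 lay within the range of the fish without food. By gene name alone PCK2 took 17.1% to 47.5% and 5.07% to 29.0%.

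Fructose 1,6-bisphosphatase reverses the phosphofructokinase step. FBP1 (TRINITY_DN28950_c3_g3), the liver form, had 10.1 to 29.5 TPM with food intake (median 19.3) and 12.2 to 22.8 TPM without (median 19.7). The fitted log2 difference was 0.02 (SE 0.32, adjusted p = 0.996 in limma) and the fish without food lay within the food intake range. FBP2 (TRINITY_DN12000_c0_g1), the muscle form, was not tested and stayed at 5.5 TPM or less. PEP carboxykinase and fructose 1,6-bisphosphatase were found, but no unigene was named for glucose 6-phosphatase. A search of protein descriptions outside the name rule gave no fish-matched unigene for it either. The last step of gluconeogenesis was therefore not analysed here.

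In 6 unigenes, picked after their values were seen, no food intake 6 stood above 5 TPM and at more than 2 times every other library. In no food intake 6, the PFKM, PGAM2 and a second ENO3 unigene (TRINITY_DN33124_c0_g2) reached 12.3, 8.43 and 16.3 TPM. A further GAPDH unigene (TRINITY_DN31271_c0_g2) reached 54.3 TPM there, and the PKM unigenes TRINITY_DN27366_c1_g2 and TRINITY_DN31454_c0_g2 reached 32.6 and 19.5 TPM. Outside that fish the ENO3 unigene stayed at 0.47 TPM or less and the GAPDH unigene at 4.90 TPM or less. The 24 fish-matched striated muscle marker unigenes summed to 1016 TPM in no food intake 6 and to 102 TPM in food intake 5, the next highest. CKM (TRINITY_DN31872_c0_g3), muscle creatine kinase, had 181 TPM in no food intake 6, against 3.75 to 48.7 TPM elsewhere. Not every marker of the list peaked there. MYLPF (TRINITY_DN26997_c1_g1) had its lowest value there, 0.70 TPM. ACTA1 (TRINITY_DN30639_c1_g4), outside the sum, had 44.0 TPM there, 153 TPM in food intake 5 and its highest value, 350 TPM, in food intake 2. FBP2, also a muscle form, had 1.36 TPM in no food intake 6 and peaked in no food intake 4 at 5.5 TPM, and LDHA peaked in food intake 1. The part of striated muscle in these enzyme values was not tested.

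**Figure D4:**
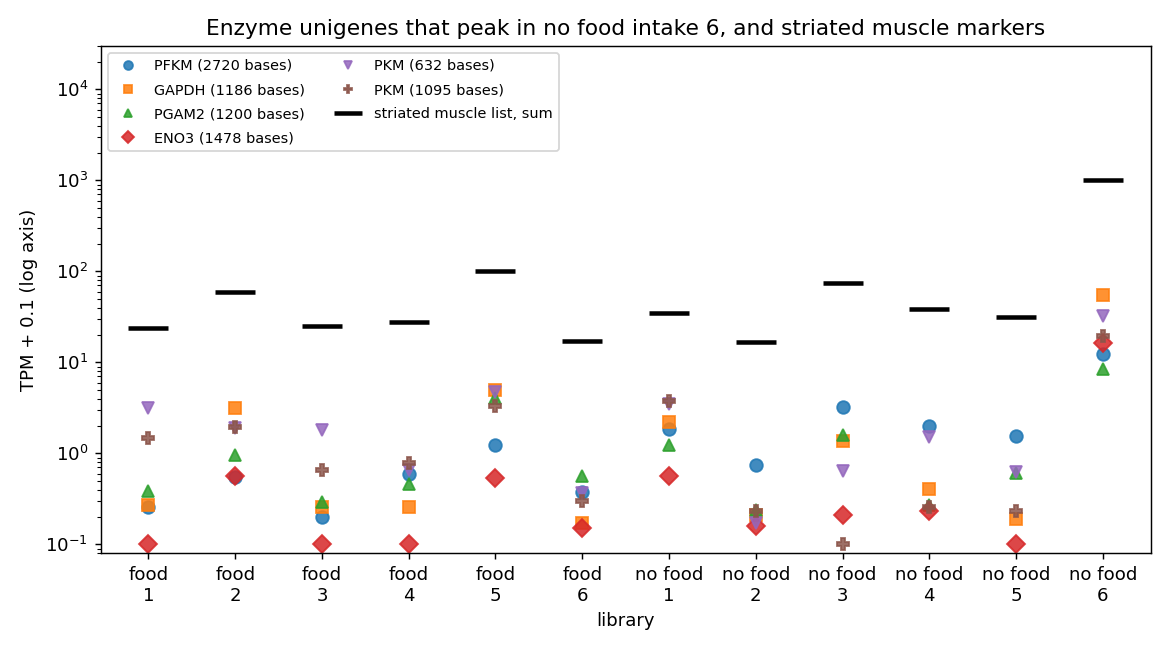
TPM + 0.1 on a log axis for 6 enzyme unigenes with their highest value in no food intake 6, in each library, with the summed TPM of striated muscle markers as black dashes. No food intake 6 had 1016 TPM of the fish-matched markers and 8.43 to 54.3 TPM of the enzymes, and food intake 5 was the next highest for these markers at 102 TPM.

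Neighbouring pathways also had no unigene called by limma at an adjusted p under 0.05. At an unadjusted p under 0.05, against 2.48% of all tested unigenes higher and 3.79% lower, the lists gave few. Pyruvate entry and fate had 1 of 28 unigenes higher and 1 lower, with a median log2 change of 0.31. PDK2 (TRINITY_DN33784_c0_g3), a kinase that switches off pyruvate dehydrogenase, had 0.83 to 2.69 TPM with food intake and 1.97 to 6.50 TPM without (log2 change -0.88, SE 0.29, adjusted p = 0.768 in limma), with -0.33 in the library set without chicken mitochondrial unigenes. ME2 (TRINITY_DN27513_c0_g10), a mitochondrial malic enzyme, had 0.81 to 7.11 against 0.22 to 1.76 TPM (log2 change 1.10, SE 0.37, adjusted p = 0.768 in limma), and only food intake 6 lay within the range of the fish without food.

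Sugar and lactate transport had 1 of 9 higher and 0 lower, with a median of 0.38, and the 1 was the glucose transporter SLC2A1 (TRINITY_DN30885_c2_g1). It had 0.80 to 7.49 TPM with food intake and 0.71 to 1.95 TPM without (log2 change 0.90, SE 0.34, adjusted p = 0.774 in limma), and food intake 1 to 5 lay above every fish without food. In the set with chicken mitochondrial unigenes the change was 0.58. The pentose phosphate pathway had 1 of 12 higher and 1 lower, with a median of 0.30.

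Fructose and galactose entry had 1 of 9 higher and 0 lower, with a median of -0.09. Redox shuttles had 1 of 16 higher and 0 lower, with a median of 0.27, the 1 being the mitochondrial aspartate aminotransferase GOT2 (TRINITY_DN29056_c0_g1), with medians of 10.7 and 3.95 TPM (log2 change 1.02, adjusted p = 0.774 in limma). Glycogen metabolism had 0 of 23 higher and 1 lower, with a median of -0.13. That 1 was GYG1 (TRINITY_DN25475_c0_g1), glycogenin, the protein that primes glycogen, with medians of 28.0 and 55.4 TPM (log2 change -0.80, SE 0.35, adjusted p = 0.774 in limma). The library sets gave GYG1 -1.21 and -0.25. The 15 tested regulators of glycolysis had 0 higher and 0 lower, with a median of -0.08.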

How the data were processed

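RNA was extracted with TRIzol and sequenced as paired ends on an Illumina HiSeq, per the labels' protocols. The submitters' processing notes name cutadapt, a read trimmer, and FastQC, a read quality tool, with no versions. The deposited values were read as TPM, a scaling made by the authors, from column totals of 984119 to 992092, since the header names no unit. Trinity identifiers in the deposited file show an assembly of the reads themselves. The quantifier is not given in the sources used here. TPM keeps no depth, so the precision of single values is unknown. All 12 columns were matched to the labels, with 0 unmatched.

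limma 3.58.1 with a variance trend was fitted in R 4.3.3 on log2(TPM + 1), which understates changes of low unigenes, over the 40142 unigenes with 1 TPM or more in 6 or more libraries. Group was the only term, with Benjamini-Hochberg adjustment over all of them at 0.05. The fit was also run on simulated data, with planted changes larger than any enzyme's change in the fit as reported, in unigenes of low spread. That run does not show whether changes of the enzymes' size would be found. Python 3.11.15 and matplotlib 3.10.9 made sums, shares and figures. Sums and shares used fish-matched unigenes. Where unigenes are pieces of 1 transcript, a sum counts that transcript more than once. Sums and shares therefore depend on how the assembly split each transcript. The rRNA-like unigenes had a mean of at least 1000 TPM and log values correlated at 0.95 or more with those of the unigene named ART2.

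The enzymes and lists were chosen with earlier results of these data known. Every enzyme could be named. Values were given for the most abundant unigene of a name at a mean of 10 TPM or more and for each with an unadjusted p under 0.05; some others were named after their values were seen. Up to 3 unigenes of each neighbouring pathway with the smallest p could be named. Some enzymes and pathway genes are not reported here. Replicate numbers were not taken as pairs, since the labels give them no meaning and same-numbered libraries did not deviate together. The alternatives changed the scaling (quantile normalization, rescaling), the filter (none, or 5 TPM), the pseudocount (0.1), the variance trend, the libraries (each left out, or the library sets), the model (replicate number as a block) and the unit (sums or 1 unigene per name, fish matches alone). Added after seeing the data were unigenes outside the name rule and grouping by best match.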

Additional observations from a re-analysis of the deposited data

Results flagged for a closer look

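Among 48 fish-matched enzyme unigenes, each in its 2 groups of 6 fish, 22 of 96 groups had 1 fish far from the other 5. The cutoff flags about 1 in 20 groups only where values are normally distributed. It was applied to untransformed TPM, so the 22 cannot be read as an excess over that rate. Many of the unigenes are low, and unigenes of 1 fish share a library. In no food intake 6 these were PFKM TRINITY_DN28086_c1_g1 at 12.3 TPM (others 0.65 to 3.11), GAPDH TRINITY_DN31271_c0_g2 at 54.3 TPM (0.09 to 2.1), PGAM2 TRINITY_DN29137_c1_g6 at 8.43 TPM (0.14 to 1.5), ENO3 TRINITY_DN33124_c0_g2 at 16.3 TPM (0 to 0.47), PKM TRINITY_DN27366_c1_g2 at 32.6 TPM (0.07 to 3.43) and PKM TRINITY_DN31454_c0_g2 at 19.5 TPM (0 to 3.66). PGAM2 was also far higher in food intake 5, at 3.96 TPM, than in the other food intake fish (0.19 to 0.86). Food intake 5 and no food intake 6 were the highest libraries for summed fish-matched striated muscle markers, at 102 and 1016 TPM. That sum leaves out ACTA1 (TRINITY_DN30639_c1_g4), which was highest in food intake 2 at 350 TPM. The part of muscle was not tested.

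In no food intake 4 they were PFKM TRINITY_DN27968_c1_g1 at 82.3 TPM (others 13.5 to 32.9), HK1 TRINITY_DN30483_c1_g1 at 3.52 TPM (0.09 to 0.93), HK1 TRINITY_DN33947_c1_g5 at 2.04 TPM (0.25 to 0.64), LDHB TRINITY_DN31911_c0_g2 at 3.87 TPM (0.34 to 1.64) and FBP2 TRINITY_DN12000_c0_g1 at 5.5 TPM (0 to 1.76). In food intake 4 they were PFKFB4 TRINITY_DN30700_c0_g3 at 9.06 TPM (others 1.64 to 2.25) and GAPDH TRINITY_DN32156_c0_g1 at 4.87 TPM (0.54 to 1.81). The same GAPDH unigene had 5.25 TPM in no food intake 5 (others 0.22 to 1.71). GAPDH TRINITY_DN34007_c0_g3 had 799 TPM in no food intake 2 (others 106 to 324). PKM TRINITY_DN31454_c0_g1 was low in no food intake 2, at 10.9 TPM (others 17.7 to 20.5). PGAM1 TRINITY_DN31301_c0_g6 had 14.3 TPM in no food intake 3 (others 6.97 to 9.43), and ENO3 TRINITY_DN33174_c4_g10 had 4.08 TPM in food intake 5 (others 0 to 0.90). The last 3 were PFKFB4 TRINITY_DN30700_c0_g1 at 5.90 TPM in food intake 1 (others 1.11 to 2.88), PCK1 TRINITY_DN33744_c1_g8 at 1.67 TPM in food intake 2 (others 0 to 0.5) and PFKL TRINITY_DN30312_c2_g2 at 2.53 TPM in food intake 3 (others listed at 0).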

How the results depend on the processing

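No enzyme was called by limma under any alternative. The count of enzymes higher at an unadjusted p under 0.05, 0 of 41 in the fit as reported, was 4 with quantile normalization, 5 after rescaling without the rRNA-like unigenes, 1 in the library set without chicken mitochondrial unigenes and 0 to 11 with single libraries left out, 11 being without food intake 6. Of all 40142 tested unigenes, 997 were higher in the fit as reported, 1635 with quantile normalization and 1958 in that library set. Rescaling gave 2285 of 40135. Single libraries left out gave 671 without food intake 1 to 3355 without food intake 6. With the replicate number as a block it was 2 (PFKL and PGK1), against 994 of 40142 tested unigenes. The numbers are only shared, since same-numbered libraries correlated at -0.102 to 0.108. None of the food intake libraries correlated best with its own number, and among the others only no food intake 3 did. The count lower, 2 of 41, was 0 of 21 with a minimum of 5 TPM, 0 of 23 summed by gene name and 1 of 22 with 1 unigene per name. It was 1 in the library set without chicken mitochondrial unigenes and 1 to 3 with single libraries left out. Over all tested unigenes the lower counts were 1521 of 40142 in the fit as reported and 482 of 9586 with that minimum. They were 1379 of 35984 summed by name and 1407 of 35679 with 1 unigene per name. That library set gave 592 of 40142, and single libraries left out gave 915 to 1932. With single libraries left out, the enzyme median ran from -0.05 without no food intake 3 to 0.23 without food intake 6. Over all tested unigenes the median in those fits was -0.06 and 0.06. The enzyme median was 0.35 in the library set without chicken mitochondrial unigenes, 0.021 summed by gene name and 0.00036 with no filter. The medians over all tested unigenes there were 0.18, -0.046 and -0.042. In the set with chicken mitochondrial unigenes the medians were 0.076 for the enzymes and -0.19 for all tested unigenes. Of 21 named enzymes, 13 kept their sign throughout and 8 did not, none of them called, and the causes were not tested. Only 14 of the 21 met the naming rule, and all 8 were among these. The rest were named after their values were seen and all kept their sign, so the 13 do not measure how stable the enzymes were. GAPDH (0.18) turned to -0.95 in the set with chicken mitochondrial unigenes, -0.021 summed by name and ran from -0.42 to 0.55 with a library left out. LDHB (-0.03) turned to 0.031 with quantile normalization, 0.43 in the set without and 0.12 after rescaling, and ran from -0.14 to 0.22 with a library left out. ENO3 (-0.69) turned to 0.26 in the set without, ENO1 (0.15) to -0.10 in the set with, and PKM (0.31) to -0.029 summed by name. PFKP (-0.05) turned to 0.12 in the set without and 0.091 after rescaling, and ran from -0.20 to 0.12 with a library left out. PFKM TRINITY_DN27968_c1_g1 (-0.22) ran from -0.42 to 0.083 and FBP1 (0.02) from -0.11 to 0.18. Adding unigenes outside the name rule moved the mean share of ENO3 from 53.2% to 33.2%. Grouping by best match moved that of mitochondrial PEP carboxykinase from 23.2% to 39.3%.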

Other observations

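The enzymes with a non-fish best match were low throughout. The 21 unigenes of the rule without a fish match reached at most 10.3 TPM and made up 0.667% to 6.99% of the enzymes' summed TPM, and 6 of them were at 0 in all 5 libraries that lacked chicken mitochondrial unigenes. Outside the rule, 18 unigenes of the same enzymes, without a fish match, had a matched protein described as chloroplastic or from a listed plant genus. They summed to 13.4 to 71.7 TPM with food intake and 12.8 to 43.2 TPM without.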
